A study of Mus musculus with 48 samples.

Results

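Lefty1 was examined as a single gene, 1 of 57126 identifiers in the count table (ENSMUSG00000038793.9, on chromosome 1), in the hippocampus of 48 mice of the outbred CD-1 stock. The gene was chosen by its measured counts in these same libraries, namely for being near 0 in all 12 control animals, so its difference between exposed and control animals is described here and not tested. Exposure was through the mothers: dams received Pb (lead) at 100 ppm, Mn (manganese) at 2 g/L, or both metals (Pb+Mn) in their drinking water from 2 weeks before mating until their pups were weaned at postnatal day 21, 8 weeks in all, and controls are labelled as such with no metal. Each exposure was represented by 6 males and 6 females aged 2 months. The labels do not state which animals were littermates, and in an outbred stock the animals also differ in genotype, so exposure, litter and genotype cannot be told apart for a value that is high in some animals only.

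Lefty1 encodes a secreted member of the transforming growth factor beta superfamily that inhibits its relative Nodal. In the mouse embryo, Lefty proteins hold Nodal signalling to the left side of the body and are themselves switched on by it. Nodal and the activins signal through activin type I and type II receptors, Nodal with the co-receptor Tdgf1 (Cripto), and the signal is carried to the nucleus by Smad2 and Smad3 together with Smad4.

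Library totals lay between 6.27 and 27.6 M counts. Markers of hippocampal neurons were present in every library: the 9 CA1 pyramidal markers summed to at least 374 CPM (the usual scaling of counts to library size) in any control, 679 in any Mn, 471 in any Pb and 514 in any Pb+Mn animal. A group of 4 libraries stood apart from the rest. Ribosomal protein genes summed to 39200 CPM in male Pb 6 and 40000 CPM in female Pb 2, against 10500 to 22200 CPM in the others. The RNA Xist, made from the inactive X chromosome, was at 24.4 CPM in male control 4 together with Y-linked Ddx3y at 30.8 CPM. In female Pb 4 Xist was at 0.0684 CPM and Ddx3y at 0 CPM, whereas every other female had 18 CPM or more of Xist. Values without these 4 libraries are given beside the results they touch.

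Lefty1 was present in some animals and nearly absent in the rest, with no animal between. Sorted on log2 CPM (prior count 2), the widest gap lay between male Pb 5, with 4 counts (0.246 CPM), and male Pb 3, with 54 counts (3.90 CPM), a 15.9-fold step. This gap spanned 3.44 on the log2 scale, and the next widest anywhere in the order spanned 0.46. The 13 animals above the gap are called on and the 35 below it off.

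Of the 35 off animals, 29 had no Lefty1 count at all. The other 6 had 1 to 4 counts. Pooled over the off libraries, 11 counts gave 0.0194 CPM (exact Poisson 95% interval 0.00966 to 0.0346, counting error only). The limit that a count of 0 allows, 3 counts, corresponded to 0.1 to 0.495 CPM per library, below the lowest on value in every case. Depth did not separate the states either, since totals ran from 10.9 to 25.7 M in on libraries and from 6.27 to 27.6 M in off libraries.

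No control animal was on. Male controls 2 to 6 had 0 counts and male control 1 had 2 counts (0.144 CPM). Female control 2 had 1 count (0.0404 CPM) and the other 5 female controls had 0. The 12 control libraries together therefore held 3 Lefty1 counts.

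After manganese, 4 of 12 animals were on, 2 of each sex. Male Mn 1 had 7.65 CPM (Poisson 95% interval 6.31 to 9.19) and male Mn 5 had 10.4 CPM, while male Mn 2, 3, 4 and 6 had 0 counts. Female Mn 3 had 6.14 CPM and female Mn 5 had 6.98 CPM, while female Mn 1, 2, 4 and 6 had 0 counts. No off animal of this exposure had a single count.

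After lead, 7 of 12 animals were on, 4 males and 3 females. Male Pb 1, 3, 4 and 6 had 7.36, 3.90, 4.94 and 13.2 CPM, male Pb 5 had 0.246 CPM and male Pb 2 had 0 counts. Female Pb 1, 3 and 5 had 8.13, 7.09 and 13.0 CPM and female Pb 2, 4 and 6 had 0 counts. Lead was the exposure with the most on animals, and it held both the lowest and the highest on values of the series. After both metals, 2 of 12 animals were on: male Pb+Mn 6 had 10.8 CPM and female Pb+Mn 6 had 11.9 CPM. The other male Pb+Mn animals had 0 counts, or 1 count in male Pb+Mn 2, and the other females had 0, 1 (female Pb+Mn 4) or 2 counts (female Pb+Mn 5). The on animals thus made up 0% of control, 33.3% of Mn, 58.3% of Pb and 16.7% of Pb+Mn animals. These shares are a description, because the pattern chose the gene.

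**Figure D1:**
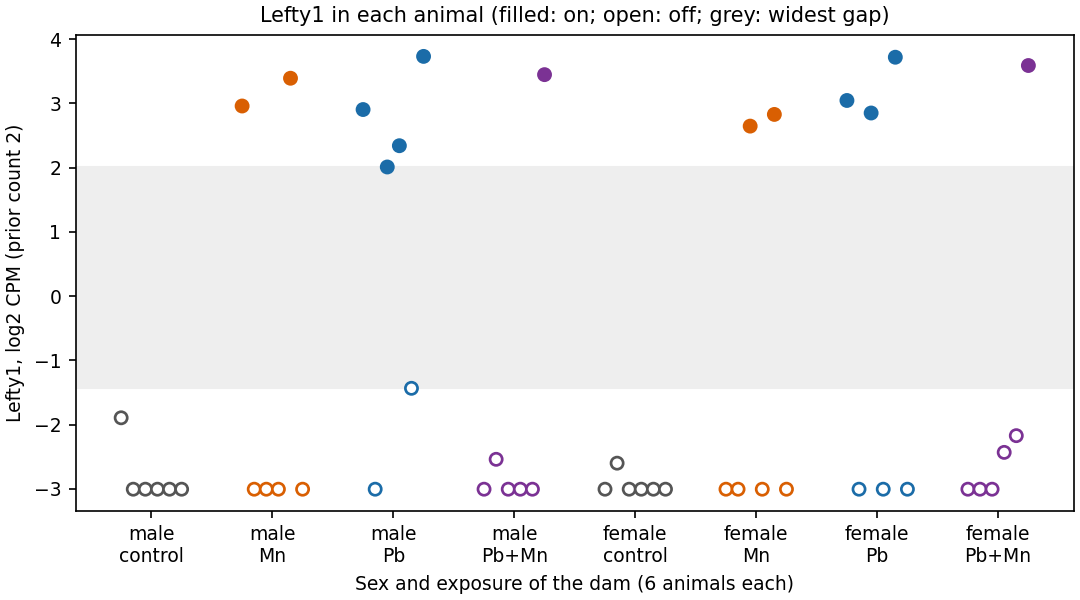
Lefty1 in each of 48 animals as log2 CPM (prior count 2), by sex and exposure, with 6 animals per column. Filled points are on and open points off, and the grey band is the widest gap, which holds no animal and leaves all 12 controls below it.

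Of the on animals, 7 were male and 6 were female. Counted by the animal numbers of the labels, which run from 1 to 6 in each group, the on animals numbered 3 at number 1, 0 at number 2, 3 at number 3, 1 at number 4, 3 at number 5 and 3 at number 6. What shared numbers stand for is not stated in the labels. Without the 4 libraries that stood apart, 0 of 11 control, 4 of 12 Mn, 6 of 9 Pb and 2 of 12 Pb+Mn animals were on, and the split fell at the same place.

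Among the 13 on animals the level varied 3.37-fold, from 3.90 to 13.2 CPM, with a median of 7.65 CPM. It averaged 7.78 ± 1.83 CPM in Mn (SD, n = 4), 8.23 ± 3.63 CPM in Pb (SD, n = 7) and 11.3 ± 0.8 CPM in Pb+Mn (SD, n = 2). The ranges of Mn (6.14 to 10.4 CPM) and Pb overlapped, and both Pb+Mn values lay within the range of Pb. The on level in males averaged 8.31 ± 3.31 CPM (SD, n = 7) and in females 8.88 ± 2.88 CPM (SD, n = 6), a difference smaller than either SD.

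Averaged over on and off animals, the 8 groups followed the number of on animals in each. Their means ran from male Pb (4.93 ± 4.92 CPM) through female Pb (4.71 ± 5.54), male Mn (3.00 ± 4.73), female Mn (2.19 ± 3.4), female Pb+Mn (2.01 ± 4.85) and male Pb+Mn (1.80 ± 4.4) to male control (0.0241 ± 0.059) and female control (0.00673 ± 0.0165; SD, n = 6 each). No neighbours in this order differed beyond their spread, the largest step being 0.405 of the larger SD of the pair. The median was 0 CPM in 5 of the groups, and reached 4.42 CPM in male Pb and 3.54 CPM in female Pb.

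Lefty2, the closest relative of Lefty1 and also an inhibitor of Nodal, lies near it on chromosome 1. It had 129 counts in all 48 libraries and did not pass the filter on low counts. Of these, 99 were in the 13 on animals, each of which had at least 2 Lefty2 counts, and 30 were in the 35 off animals. Lefty2 ran from 0.122 to 1.25 CPM in on animals and from 0 to 0.301 CPM in off animals, so the ranges overlapped. The highest value was that of male Pb 6, which also held the highest Lefty1 value.

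Across the 48 animals, log2 CPM of Lefty2 and Lefty1 had a Pearson r of 0.815 and a Spearman rho of 0.691, and r was 0.28 within the 13 on animals. Leaving out the 4 libraries that stood apart, r was 0.838 over 44 animals and 0.043 within the 12 on animals left. The transcripts of these genes share sequence: of 1521 windows of 100 bases in the Lefty1 transcript (GENCODE M21), 73 (4.8%) are found unchanged in the Lefty2 transcript, and the longest shared run is 140 bases. With shorter windows of 50 bases it is 281 of 1571 (17.9%). There were 5.53 Lefty2 counts per 100 Lefty1 counts over the on animals, from 1.55 to 11.1 in single animals. How many Lefty2 counts came from Lefty1 reads was not tested, so Lefty2 values are uncertain, and RefSeq also places an unnamed non-coding gene model (Gm39715) across Lefty1, from which reads could not be told apart without strand.

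To describe which genes followed Lefty1, 13124 named genes whose log2 CPM averaged 0 or higher were ordered by Pearson r with Lefty1 over the 48 animals. The 1st and 99th percentiles of r over these genes were -0.355 and 0.326. These are descriptions over animals that fall into on and off states and share libraries, and they carry no p-value.

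Lefty2 (r = 0.815) did not pass the filter on low counts and was not ranked. Among the ranked genes reported here, the highest values belonged to genes on other chromosomes. These were Dnajb9, an endoplasmic reticulum chaperone gene (r = 0.505, rho = 0.37), March1, a ubiquitin ligase gene (r = 0.49), Gem, a small GTPase gene (r = 0.48), Nr4a2, an orphan nuclear receptor and activity-induced gene (r = 0.47), and Ptp4a2, a tyrosine phosphatase gene (r = 0.47). Within the on animals r was -0.39 for Dnajb9 and -0.14 for Ptp4a2, the reverse of their values over all animals, and 0.53, 0.42 and 0.41 for March1, Gem and Nr4a2. At the other end were Tnfrsf11a, the receptor RANK (r = -0.56), Anpep, an aminopeptidase gene (-0.54), Dnah14, a dynein heavy chain gene (-0.53), Cc2d1b (-0.53) and Flnc, which encodes filamin C (-0.51). Anpep also reversed within the on animals, to 0.55. Without the 4 libraries that stood apart, r of the 5 highest genes lay between 0.456 (March1) and 0.496 (Gem and Nr4a2) and that of the 5 lowest between -0.572 (Tnfrsf11a) and -0.477 (Flnc). The order was not stable. Dnajb9 had the highest r of the tested genes reported in 33 of 48 sets that left out 1 library. It was overtaken by Nr4a2 without the 4 libraries, by Gem with values centred on groups and by Cxcl14 with Spearman's rho.

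Dnah14 is a gene near Lefty1, 10 protein-coding genes away on chromosome 1 (RefSeq gene order, GRCm38.p6). It ran from 0.387 CPM (male Pb+Mn 6, on) to 7.39 CPM (male control 4, off). The 3 lowest animals were on, namely male Pb+Mn 6, female Mn 5 (0.544 CPM) and female Pb+Mn 6 (0.556 CPM), and 7 of the 13 lowest were. No on animal was among the 13 highest, and on animals reached at most 3.32 CPM, inside the range of off animals (0.825 to 7.39 CPM). Within exposures the states lay apart in 2 of 3 cases. After Mn, the 4 on animals had 0.544 to 1.29 CPM of Dnah14 and the 8 off animals 1.49 to 4.21 CPM, and after Pb+Mn the 2 on animals had 0.387 and 0.556 CPM and the 10 off animals 1.51 to 4.20 CPM. After Pb they overlapped, at 1.85 to 3.32 CPM in on and 2.03 to 6.56 CPM in off animals. These ranges were looked at after the values were seen, and with values centred on each group r was -0.70. Within the 13 on animals r was -0.26, and over all animals it was -0.555 without the 4 libraries that stood apart.

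Other genes near Lefty1 were described in the same way. Among protein-coding genes up to 10 places away on either side, 15 that passed the filter are reported. Tmem63a, a membrane channel gene next to Lefty1, ran from 16.6 to 39.3 CPM in on and from 22.4 to 50.8 CPM in off animals, and none of its 13 highest values belonged to an on animal. It had r = -0.43 (rho = -0.375), and Cnih4, 5 genes away, had r = 0.38 (named after its value was seen). Within the on animals r was -0.36 for Tmem63a and -0.20 for Cnih4, the latter the reverse of its value over all animals. Over the 44 animals without the libraries that stood apart, these genes had r = -0.375 and 0.384. With Dnah14, 3 of these 15 genes (20%) lay outside the 1st to 99th percentile range, which holds all but 2% of the ranked genes by construction. From 11 to 30 genes away it was 3 of 30 (10%), and from 31 to 50 genes away 0 of 25. This window was set after the values of the nearest genes were seen. It also holds tested genes whose log2 CPM averaged under 0, which the ranking left out, so its shares and the 2% are not strictly alike. Catspere1 (r = -0.399), 11 to 30 genes away and outside the percentile range, is such a gene. Genes next in line were inside that range, with Sde2 at r = -0.21 and H3f3a at 0.27 beyond Lefty2, and Ephx1 at 0.02 beyond Tmem63a.

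**Figure D2:**
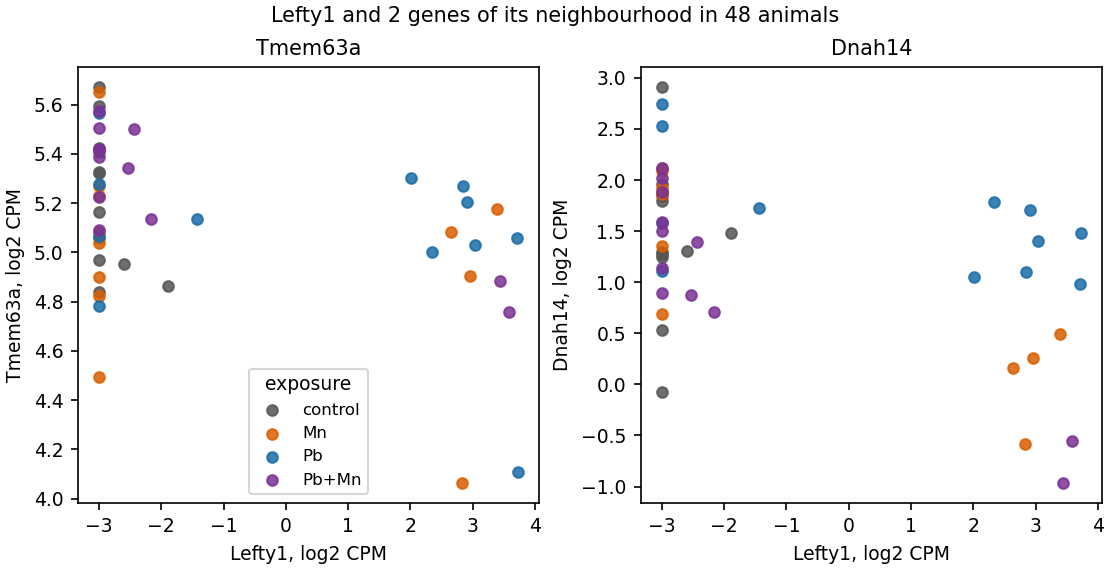
Log2 CPM of Lefty1 (horizontal) against Tmem63a (left) and Dnah14 (right) in 48 animals coloured by exposure. On animals lie to the right; r over all animals is -0.43 for Tmem63a and -0.53 for Dnah14, and on and off animals overlap in both.

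**Figure D3:**
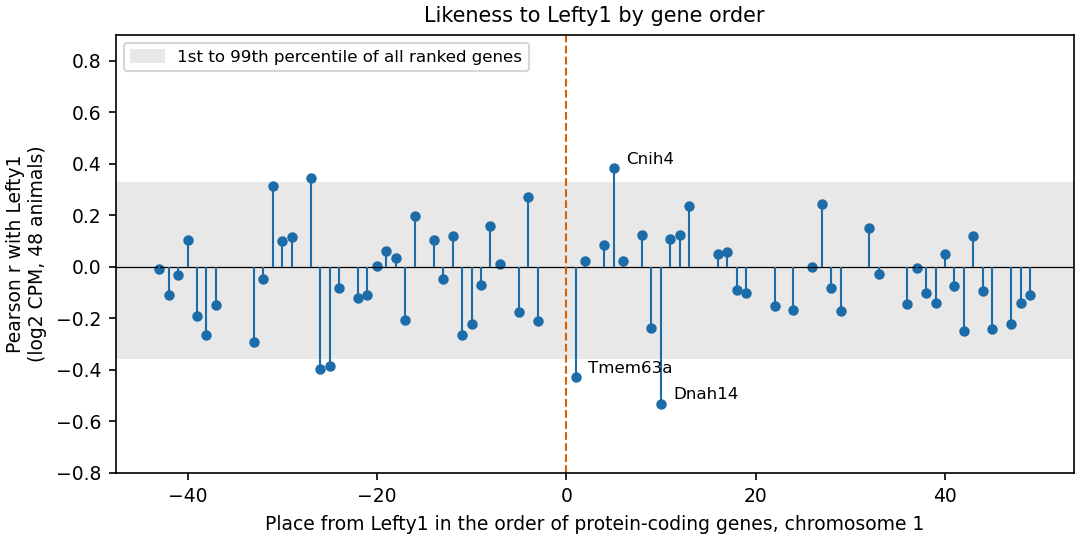
Pearson r with Lefty1 over 48 animals (vertical) for tested protein-coding genes within 50 places of Lefty1 in the gene order of chromosome 1 (horizontal; dashed line, Lefty1). The grey band is the 1st to 99th percentile of all ranked genes (-0.355 to 0.326). Dnah14 at -0.53, Tmem63a at -0.43, Catspere1 at -0.399 and Catspere2 at -0.384 lie below it. Cnih4 at 0.38 and Adss at 0.344 lie above it.

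Neighbours and pathway genes were then compared between exposed and control animals. Their values were not part of the rule that chose Lefty1, but the lists and tests were chosen with earlier results of these data known. The fit (edgeR quasi-likelihood test, sexes averaged, 12 animals against 12, Benjamini-Hochberg adjustment) called 0% of 16359 genes other than Lefty1 at an adjusted p under 0.05 in each of the Mn, Pb and Pb+Mn comparisons with control. The smallest adjusted p was 0.802, 0.322 and 0.349 in that order. At an unadjusted p under 0.05 it found 4.29% of genes for Mn, 11.1% for Pb and 4.06% for Pb+Mn. The same 12 controls serve all 3 comparisons. DESeq2 called 0, 33 and 1 genes, none of them a neighbour or pathway gene, and limma voom called 0.

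Of the 15 neighbours reported, 0 passed in any comparison (edgeR, DESeq2 and limma voom alike). At an unadjusted p under 0.05 there were 0 for Mn, 2 for Pb and 0 for Pb+Mn, against 4.29%, 11.1% and 4.06% of all genes. The 2 for Pb, both named after their values were seen, were H3f3a, a histone H3.3 gene (log2 fold change 0.31 ± 0.14, SE), and Acbd3, a Golgi protein gene (-0.16 ± 0.07). Without the 4 libraries that stood apart the values for Pb were 0.02 for H3f3a and -0.08 for Acbd3, and 0 of the 15 neighbours were left at an unadjusted p under 0.05. Over all genes the count for Pb also fell, from 1820 to 858 without female Pb 2 alone. The loss was therefore not read as particular to the neighbours. Tmem63a had -0.22 ± 0.13 for Mn, -0.14 ± 0.13 for Pb and 0.05 ± 0.13 for Pb+Mn, and its value for Pb was 0.03 without the 4 libraries. The median log2 fold change over these neighbours was -0.02 for Mn, -0.027 for Pb and -0.003 for Pb+Mn, against -0.001, -0.001 and -0.004 over all genes tested.

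In the Nodal and activin pathway, apart from Lefty1, 17 of 27 listed genes passed the filter. Among ligands, Nodal itself was barely present, with 234 counts over 48 libraries and at most 0.754 CPM (female Pb 2, a Lefty1-off animal). Gdf1 was listed at 0, which was not read as absence because settings for shared reads were not given. Gdf3 had 2 counts. Nodal and Lefty1 had r = -0.28 over the 48 animals. The antagonist Cer1 and the co-receptor Cfc1 had 7 counts each, and Foxh1, the DNA-binding partner of Smad2, had 72.

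The activin subunits were measured more deeply. Inhba was at 13.0 ± 8.76 CPM in controls and Inhbb at 9.88 ± 2.41 CPM (SD, n = 12 each). Neither passed the test in any comparison, Inhbb having the smallest p of the pathway for Mn (log2 fold change 0.25 ± 0.17, SE, edgeR adjusted p = 1). The tested antagonists did not pass either, with Dand5, an inhibitor of Nodal, at 0.16 ± 0.11 for Mn and 0.15 ± 0.11 for Pb, and follistatin (Fst), an activin-binding protein, at -0.20 ± 0.33 for Mn and -0.37 ± 0.33 for Pb.

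Receptors were present in every group. Acvr1b, the type I receptor used by Nodal and activin, was at 106 ± 9.27 CPM in controls, 110 ± 12.8 in Mn, 98.0 ± 23.9 in Pb and 112 ± 10.6 in Pb+Mn animals (SD, n = 12 each). The pathway genes of smallest p for Pb+Mn were the co-receptor Tdgf1 (-0.60 ± 0.37) and the type II receptor Acvr2b (0.23 ± 0.15; edgeR adjusted p = 0.94 each). Tdgf1 rests on few counts, 335 over all libraries.

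Among signal transducers, Smad2 had log2 fold changes of 0.003, -0.003 and 0.027 (SE 0.067 each) and Smad4 of -0.019, -0.034 and 0.032 (SE 0.067 each) for Mn, Pb and Pb+Mn. For Pb the smallest p belonged to Drap1, a transcriptional corepressor that acts on Foxh1 in the mouse embryo (0.38 ± 0.13, edgeR adjusted p = 0.33), and Smad7, an inhibitory Smad (-0.17 ± 0.08, adjusted p = 0.44). Drap1 was at 0.24 without female Pb 2, at 0.27 without male Pb 6 and at 0.17 without the 4 libraries that stood apart, where Smad7 was at -0.12. The processing enzymes Furin and Pcsk6 and the tested target Eomes had absolute log2 fold changes of at most 0.13, 0.10 and 0.38.

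In all, 0 of the 17 tested pathway genes passed in any comparison with edgeR, DESeq2 or limma voom. Over all genes tested, 4.29%, 11.1% and 4.06% had an unadjusted p under 0.05 for Mn, Pb and Pb+Mn. These shares are with every library in, and those without the 4 libraries that stood apart are not given here. Of the 17 pathway genes, the fit gave 0 for Mn, 2 for Pb and 0 for Pb+Mn at that threshold. Without the 4 libraries that stood apart, Drap1 and Smad7 were no longer among them for Pb (unadjusted p = 0.0989 and 0.18), and 2 other genes were, Tdgf1 (-1.06 ± 0.42) and Fst (-0.76 ± 0.345; edgeR adjusted p = 0.999 each). The list's median log2 fold change was 0.003 for Mn, -0.077 for Pb and 0.063 for Pb+Mn, and that for Pb was 0.014 without those libraries. Over the 48 animals, r between a tested pathway gene and Lefty1 ran from -0.205 (Tdgf1) to 0.218 (Drap1), inside the 1st to 99th percentile range of all ranked genes.

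**Figure D4:**
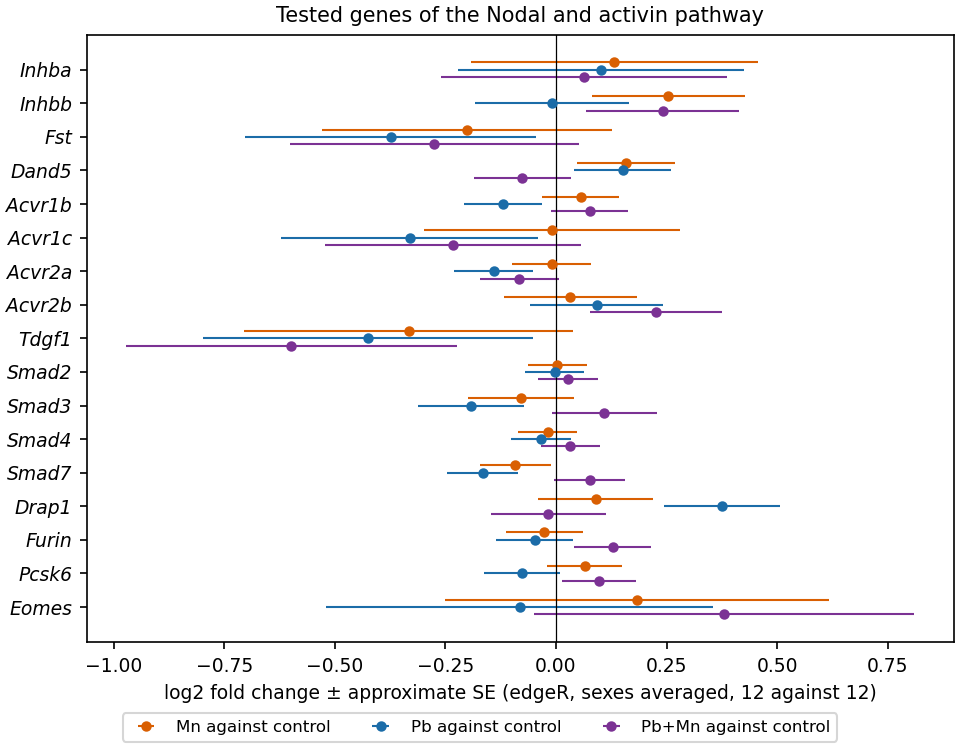
Log2 fold change against control (horizontal, with approximate SE) of the 17 tested genes of the Nodal and activin pathway for each exposure, 12 animals against 12 with sexes averaged. No gene passed the adjusted threshold; Drap1 for Pb (0.38) and Tdgf1 for Pb+Mn (-0.60) have the smallest p of their comparisons.

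Because the tissue was bulk hippocampus, fewer cells of a type and less RNA per cell cannot be told apart, and marker levels were set beside Lefty1. Over the 48 animals, the mean log2 CPM of the 9 CA1 markers (Wfs1, Fibcd1 and others) had r = 0.24 with Lefty1 (rho = 0.08), that of 8 CA2 and CA3 markers -0.285, that of 8 dentate granule cell markers -0.10 and that of 8 interneuron markers 0.33 (rho = 0.15). For neighbouring tissues it was -0.26 for choroid plexus, -0.32 for thalamus and habenula (rho = -0.32) and -0.315 for meninges, and 0.15 for blood. CA1 marker sums in off controls (374 to 1046 CPM) overlapped those of Mn (679 to 1131), Pb (471 to 1712) and Pb+Mn (514 to 988) animals. Every library held CA1 markers, whether Lefty1 was on or off.

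Of the marker lists, 0 genes passed in any comparison (edgeR, adjusted p), and several lists leaned one way. All 8 thalamic and habenular markers had negative log2 fold changes in each comparison, with medians of -0.88 for Mn, -0.52 for Pb and -0.49 for Pb+Mn. At an unadjusted p under 0.05 there were 5, 2 and 0 of them, against 4.29%, 11.1% and 4.06% of all genes, and 3, 0 and 0 without the 4 libraries that stood apart. The share of all genes without those libraries is not given here. For Pb, leaving out female Pb 2 alone took the count over all genes from 1820 to 858. The sum of the thalamic and habenular markers ran from 179 to 1102 CPM in controls (median 413), 174 to 635 in Mn (240), 140 to 864 in Pb (236) and 165 to 593 in Pb+Mn animals (337), so the groups overlapped.

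All 7 meningeal markers were negative for Mn (median -0.52) and for Pb (-0.57), with 4 and 5 at an unadjusted p under 0.05, and 4 and 0 without the 4 libraries. Over all genes, 4.29% for Mn, 11.1% for Pb and 4.06% for Pb+Mn reached that p with every library in. The fall in the all-gene count for Pb given above holds here too. No all-gene share without the 4 libraries is given for any marker list. For Pb+Mn 6 of the meningeal markers were negative, with a median of -0.05. Of 9 CA1 markers, 8 were positive for Mn (median 0.33) and for Pb (0.30). At an unadjusted p under 0.05 were 2 and 3 of them, and 2 and 4 without the 4 libraries. Of 5 tested blood markers, 4 were at an unadjusted p under 0.05 for Pb+Mn (median 0.85) and 2 for Pb (0.57), with the same counts without the 4 libraries. Choroid plexus markers had medians of -0.31 for Mn, 0.31 for Pb and 0.73 for Pb+Mn, with 0 at an unadjusted p under 0.05. The part of any of these markers in the Lefty1 counts was not tested.

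Within the 13 on animals, the Lefty1 level had larger correlations with several marker scores. Correlations were positive with the interneuron markers (r = 0.81, rho = 0.81) and, more loosely, with the CA1 markers (r = 0.57, rho = 0.31), and negative with markers of thalamus and habenula (r = -0.74, rho = -0.63). For dentate granule cells r was 0.39 (rho = 0.36) and for blood 0.38 (rho = 0.47), with rho above that of CA1. It was 0.09 for meninges, -0.35 for choroid plexus and -0.39 for CA2 and CA3. All 8 thalamic and habenular markers had negative values, from -0.79 (Lef1) to -0.33 (Tac2), and 7 of 8 interneuron markers had positive ones, led by Npy (0.78) and Lhx6 (0.70), with Pvalb at -0.217. Without male Pb 3 and male Pb 6, r was 0.72 for interneurons, 0.48 for CA1 and -0.52 for thalamus and habenula. It was then 0.453 for dentate granule cells and 0.455 for meninges, close to the CA1 value. Of the 4 libraries that stood apart, male Pb 6 was on. Without those libraries r was 0.77 for interneurons, 0.611 for CA1 and -0.714 for thalamus and habenula. Dentate granule cells then had 0.569 and meninges 0.248. These relations were examined after the split was seen, over animals of 3 exposures, and what part tissue composition has in the on level was not tested.

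**Figure D5:**
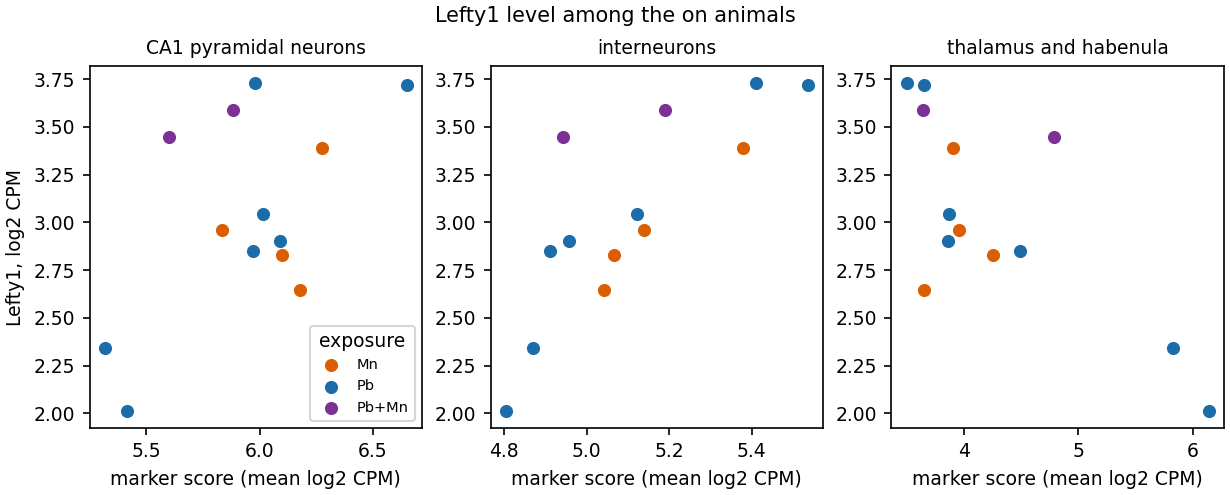
Lefty1 log2 CPM (vertical) in the 13 on animals against the mean log2 CPM of CA1, interneuron and thalamus and habenula markers (horizontal), coloured by exposure. The 2 lowest animals, male Pb 3 and male Pb 4, have the highest thalamic scores, and r is 0.57, 0.81 and -0.74 in the 3 panels.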

How the data were processed

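Hippocampal poly(A) RNA of 48 mice was sequenced as stranded paired reads, per the labels' protocols. The values are whole-number counts per gene, as deposited by the authors, without normalization. Trim Galore 0.6.9, STAR 2.7.10b, featureCounts 2.0.6 and build GRCm39 are named in the submitters' processing notes; settings for strand and shared reads were not given in the sources used here, and counts of near-identical genes are uncertain. Of 57126 identifiers, 51884 matched a symbol.

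CPM used TMM-scaled totals, and log2 CPM a prior count of 2. All 48 libraries were fitted together by quasi-likelihood (edgeR 4.0.16, R 4.3.3; glmQLFit, glmQLFTest; a term for each of 8 sex and exposure groups; filterByExpr), on 16360 genes, with Benjamini-Hochberg adjustment at 0.05. An SE was taken as the log2 fold change over the square root of F. DESeq2 1.42.0 and limma 3.58.1 were alternatives. The fit and the split were also run on simulated data with levels and spread set like those found here, a check of the code only. P-values measure the spread between animals, not litters.

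Lefty1, the lists and the tests were chosen with earlier results of these data known. Genes named were Lefty1, Lefty2, pathway genes that passed or else the 2 of smallest p per comparison, neighbours that passed or else the nearest reported on each side and the one of highest absolute r, and the 5 highest and 5 lowest by r, leaving out unnamed models, pseudogenes and sex-linked genes. Other pathway genes and neighbours are named for their role or place, after their values were seen. No pair of libraries within a group looked like a repeat deposit (smallest chi-square over its degrees of freedom, 8.9). Of the genes fitted, 1 is not reported here, and rankings and lists leave it out. Gene order and names come from GRCm38 annotations, so no coordinates are given.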

Additional observations from a re-analysis of the deposited data

Results flagged for a closer look

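In each of 8 groups of 6 animals, Lefty1, Lefty2, Tmem63a and Dnah14 were examined for a sample whose distance to its nearest neighbour was a large part of the group's range (Dixon's criterion at 95%). Chance gives such a sample in about 1 group of 20. That rate does not apply to Lefty1, chosen for being near 0 in all controls, or to Lefty2, with few counts. Together Lefty1 and Lefty2 gave 9 of the 11 samples found. Tmem63a and Dnah14 gave 2 in 16 groups. For Lefty1 these were male Pb+Mn 6 (10.8 CPM, next 0.0475) and female Pb+Mn 6 (11.9 CPM, next 0.0974), each the only on animal of its group, and, on 2 and 1 counts, male control 1 (0.144 CPM) and female control 2 (0.0404 CPM). The same 2 Pb+Mn animals stood apart for Lefty2, at 0.452 and 0.556 CPM.

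Further Lefty2 values were those of male Mn 1 (0.47 CPM), male Pb 6 (1.25 CPM) and female control 2 (0.0404 CPM, on 1 count). Tmem63a was far from its group in male Mn 2 (50.2 CPM, next 36.1) and in male Pb 6 (17.1 CPM, next 31.9). Dnah14 had no such sample.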

How the results depend on the processing

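The 13 on animals were the same with DESeq2 size factors, with totals without TMM, with prior counts of 0.5 and 5 and with a fixed threshold of 1 CPM. Leaving out each library in turn gave 12 or 13, the lower number when an on animal was left out, and 12 remained without the 4 libraries that stood apart, a setting chosen after seeing the data. The likeness of Dnajb9 to Lefty1 (r = 0.505) was 0.368 by Spearman's rho, 0.458 to 0.562 without any single library, and -0.393, in the reverse direction, within the 13 on animals; the cause was not tested. Genes called by DESeq2 were 33 for Pb and 1 for Pb+Mn, where edgeR called 0; the cause was not tested. Counts were 0 in each comparison with limma voom, DESeq2 size factors in edgeR, no filter on low counts, and males or females alone. Leaving out each library in turn, edgeR called 0 to 1 genes for Pb (1 without female control 1 or female Pb 3), 0 to 1 for Pb+Mn (1 without male Pb+Mn 4) and 0 for Mn, and no pathway or neighbour gene. Unadjusted counts for Pb (1820 genes) fell to 858 without female Pb 2 and 1050 without male Pb 6. Deviations of animals with the same number had a median r of 0.028, against -0.007 for different numbers, and were over 0.1 in 51 of 168 pairs, so the numbers were not taken as pairs. Still, 22 of 48 animals correlated best with an animal of their own number, where 8 would by equal shares, a hint from the data and not the design. With the number as a replicate block, 0 genes passed in each comparison. Depth limits Lefty2, Nodal and Tdgf1, which had few counts.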
